A study of Rattus norvegicus with 3 samples.

Results

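The genes described here are 6 genes of the chondrocyte programme, Sox9, Sox6, Sox5, Hapln1, Acan and Comp, measured in ROS17/2.8 cells, rat osteosarcoma cells grown from 1 clone and used as a model of osteoblasts. They were taken by gene name from the annotation of the array, which gave 9 probes and 16 spots among 30367 probes for 26142 gene names. Each array carried Cy3-labelled cRNA from cells that had reached confluence and were then held in mineralization medium with ascorbate phosphate and a glycerophosphate. The high dose cells received polyphosphate at 1 mg/ml for 24 h, the low dose cells 0.01 mg/ml for 24 h, and the control cells none, with no time on the control's label. Each of the 3 groups is 1 array of 1 cell line, so the differences below have no replicate check and no p-value, and the culture and the place of the array on its slide cannot be told apart from the dose.

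SOX9 is the transcription factor that commits mesenchymal cells to the cartilage lineage. SOX5 and SOX6 are related proteins that lack an activation domain of their own and work beside SOX9 on the enhancers of cartilage matrix genes. The matrix genes stand downstream: Acan encodes aggrecan, the large proteoglycan that holds water in cartilage, Hapln1 encodes the link protein that fixes aggrecan to hyaluronan, and Comp encodes cartilage oligomeric matrix protein, a thrombospondin relative that binds collagen fibrils. Sox9 is also expressed in skeletal progenitors from which both osteoblasts and chondrocytes arise.

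On these arrays the 4 members Sox9, Sox6, Hapln1 and Comp had a probe well above background on all 3 arrays, and the 2 members Sox5 and Acan on none. Of all 26142 gene names, 40.9% had no probe well above background on any array. Sox9 was higher at the low dose than in either other condition, and the brighter Hapln1 probe was likewise highest there. Sox6 was highest at the high dose. None of the 4 measured members was 2-fold apart between any pair of arrays.

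The identity of the Sox9 and Hapln1 probes matters for what follows, because probes for the same gene did not all detect it, and their sequences are shown for that reason. Both Sox9 probes were designed on one Ensembl transcript model and lie on chromosome 10 of the rat build rn4, 1849 bases apart. The probe that stayed near background sits at offset 0 of the model, chr10:102387042-102387101, and starts with the start codon triplet, in capitals. The probe that detected Sox9 sits at offset 1195, chr10:102388891-102388950. Both are on the plus strand, and each leaves 2 of the sense reading frames free of stop codons.
Sox9, offset 0: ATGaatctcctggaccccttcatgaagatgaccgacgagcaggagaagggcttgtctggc
Sox9, offset 1195: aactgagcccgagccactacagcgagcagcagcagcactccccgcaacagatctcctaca

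Hapln1 had 3 probes on chromosome 2 (rn4). Those at offsets 484 and 1972 of the RefSeq transcript, chr2:19629918-19629977 and chr2:19637923-19637982, were well above background, and the probe at offset 274 of an Ensembl model, chr2:19625975-19626034, was not on any array. The probe at offset 1972 has a stop codon in every sense frame and a GC content of 35%, against 41.7% for that at offset 484. The first 30 bases of the detecting probes are these.
Hapln1, offset 484: aagtgtgaggtgattgaaggactagaagat
Hapln1, offset 1972: gctggacagaaaacaagtacaatgtagcag

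**Figure D1:**
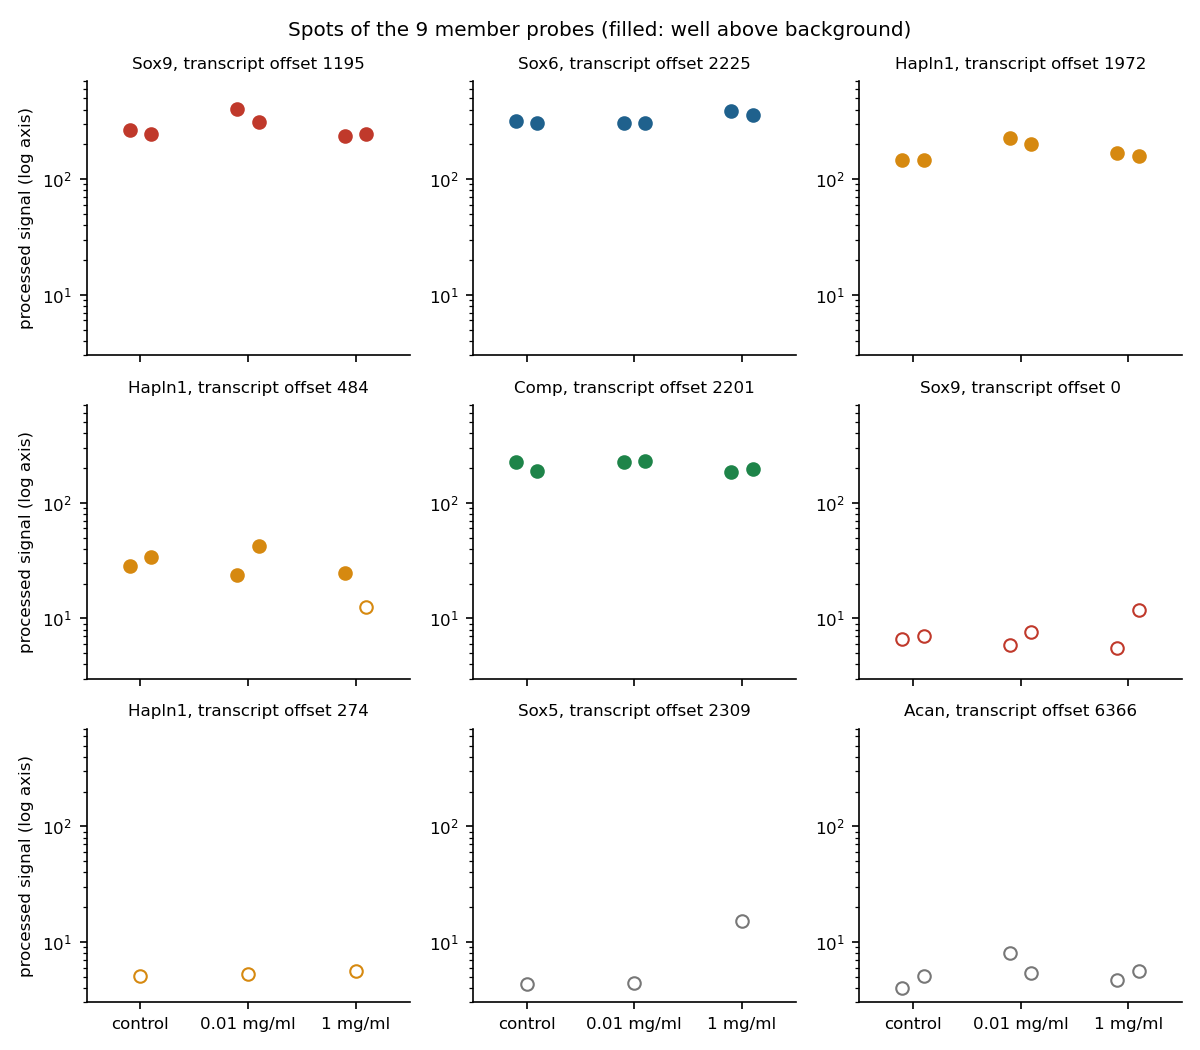
Processed signal (log axis) of every spot of the 9 probes on the control, 0.01 mg/ml and 1 mg/ml arrays; filled points are well above background and open points are not, and each panel is titled with the offset of its probe in the transcript. The Sox9 probe at offset 1195 read 404 and 314 on the low dose array, above its other 4 spots, whereas Sox6 was highest on the high dose array and Sox5 and Acan show open points only.

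Sox9, at offset 1195, read 269 and 248 without polyphosphate, 404 and 314 with 0.01 mg/ml, and 236 and 247 with 1 mg/ml. The low dose spots lay above all spots of the other arrays but were also the furthest apart of the 3 pairs, and the control and high dose spots nearly met. After each array was scaled to its 75th percentile of signal, the log2 ratio of low dose to control was 0.41 ± 0.09, a fold of 1.33, where the ± is a spot error: the standard error expected from the scatter of repeat spots of similar brightness on the same array, which leaves out culture, extraction and labelling. The scanner software's own error estimate, which adds a fixed share of the signal, was 0.15 for the same ratio. The individual spots gave 0.53 and 0.28. The probe at offset 0 read between 5.56 and 11.8 on all arrays, none of its spots well above background. It therefore gives no second reading of Sox9.

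Sox9 did not stay high at the larger dose. The log2 ratio of high dose to control was -0.11 ± 0.10, and it was 0.040 when the arrays were centred on spike-in probes instead. The direct comparison of high against low dose gave -0.52 ± 0.10, with spots at -0.73 and -0.31. This was the comparison in which Sox9 differed most, with a ratio of -5.45 times the spot error and -3.54 times the scanner error. The pooled spot SD at this brightness on the low dose array was 0.08 on the log2 scale. Sox9's own spots there, 404 and 314, lay further apart than that, so the spot error of both ratios with the low dose array understates their scatter.

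Sox6, whose probe lies on the minus strand at chr1:173557379-173557438, read 320 and 306 without polyphosphate, 307 and 305 with 0.01 mg/ml, and 387 and 356 with 1 mg/ml. Both high dose spots were above the other 4. The log2 ratio was 0.23 ± 0.09 for high dose against control, 0.32 ± 0.09 for high against low, and -0.09 ± 0.09 for low against control. With the scanner error of 0.15 in each case, the first of these was 1.57 errors from 0 and the second 2.18. The sign of the low dose ratio turned to 0.07 with centring on spike-in probes.

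Sox5 had a single spot, at chr4:180399384-180399443 on the minus strand. It read 4.33 on the control array, 4.42 with 0.01 mg/ml and 15.2 with 1 mg/ml, not well above background on any. No fold is given for it.

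Hapln1 at offset 1972 read 147 and 147 without polyphosphate, 228 and 203 with 0.01 mg/ml, and 170 and 159 with 1 mg/ml. The spots of the 3 arrays did not overlap, with the low dose highest and the high dose between. The log2 ratios on this probe were 0.49 ± 0.11 between the low dose and control, 0.15 ± 0.12 between the high dose and control, and -0.34 ± 0.11 between the doses.

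The dimmer Hapln1 probe, at offset 484, did not repeat this order. Its spots read 28.4 and 33.8 without polyphosphate, 23.7 and 42.1 with 0.01 mg/ml, and 24.9 and 12.6 with 1 mg/ml, the last not well above background. Its log2 ratios were -0.03 ± 0.26 between the low dose and control and -0.83 ± 0.25 between the high dose and control, the latter with a scanner error of 0.42. The mean over both probes was 0.23 ± 0.14 with 0.01 mg/ml and -0.34 ± 0.14 with 1 mg/ml, so the value at the high dose took its sign from the dimmer probe: it was 0.15 on the brighter probe alone. For high against low the brighter probe stood at -0.34 and the dimmer at -0.80, with a mean of -0.57 ± 0.14. The value of the dimmer probe rests on the pair 42.1 and 12.6, whose high dose reading did not pass the flag. Its other pair, 23.7 and 24.9, passed at either dose and stood at 0.11 after scaling. The dimmer probe therefore adds no second reading of a lower Hapln1 between the doses.

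Comp, at offset 2201 of its transcript and without a genome position in the annotation of the array, read 225 and 190 without polyphosphate, 226 and 228 with 0.01 mg/ml, and 185 and 197 with 1 mg/ml. The high dose spots overlapped the control spots, and both low dose spots lay above the high dose spots. In raw signal they were just above the higher control spot, but after scaling that spot pair gave a log2 ratio of low dose to control of -0.05, and the other pair 0.21. Its log2 ratios were 0.08 ± 0.10 for low against control, -0.13 ± 0.11 for high against control and -0.21 ± 0.11 for high against low. None of these passed 2 spot errors. With centring on spike-in probes the first became 0.24 ± 0.10, past 2 spot errors, and the second 0.025, and with quantile normalization the third became -0.22 ± 0.11, also just past them.

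Acan, whose probe spans 569 bases of chromosome 1 from 134846027 to 134846595 although it is 60 bases long, read 4.03 and 5.05 without polyphosphate, 8.04 and 5.39 with 0.01 mg/ml, and 4.67 and 5.66 with 1 mg/ml. No spot was well above background, so Acan has only an upper bound here and no fold.

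**Figure D2:**
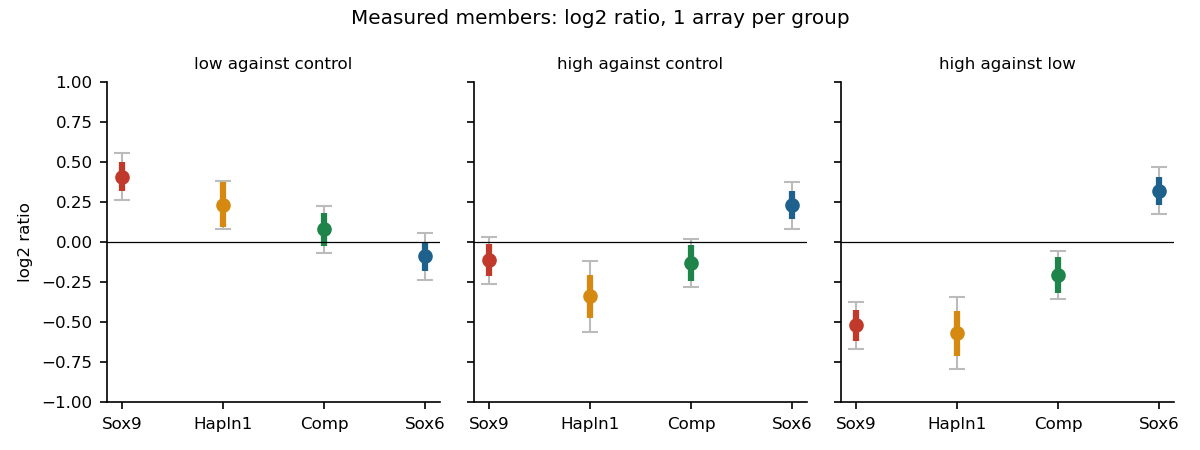
Log2 ratio of the 4 measured members in each comparison, with 1 array per group; thick bars are the spot error and thin capped bars the scanner software's error. Sox9 stands at 0.41 in the left panel and -0.52 in the right panel, Sox6 at 0.32 in the right panel, and Comp lies within 2 spot errors of 0 in all 3.

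Counted over the list, the low dose gave 1 member of 4 measured above control by more than 2 spot errors (Sox9) and 0 below, where 4.16% of all 14629 measured genes were above and 4.42% below by as much. The median of the members was 0.15, against 0.00 over all genes. At the high dose 1 member was above control by that rule (Sox6) and 1 below (Hapln1, on the mean of probes that disagreed), where 10.7% and 12.8% of 14500 genes were. The median was -0.12 against -0.01 over all genes, and it turned to 0.017 when only probes with every spot well above background were used and to 0.033 with centring on spike-ins. Between the doses 1 member was higher at the high dose (Sox6) and 2 lower (Sox9 and Hapln1), where 9.77% and 10.8% of 14487 genes were, with a median of -0.36 against -0.01. The rule of 2-fold was met by 0 members, and by 0.117%, 0.116% and 0.0759% of all genes in the comparisons of the high dose with control, the low dose with control and the doses with each other. Centring on spike-ins places 40.9% of all genes above and 1.80% below control by more than 2 spot errors at the high dose, and 44.1% and 0.479% at the low dose, so counts against control are relative to the bulk of genes. Under it 3 of the 4 members were above control at the low dose, 1 at the high dose, and 0 below at either, while between the doses the counts were 1 and 2 as before. The comparisons share arrays, so the low dose array enters both comparisons in which Sox9 stands apart. Counts and medians over 4 measured members rest on too few genes to be set against those of all genes.

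The position of each member among all genes gives a scale that includes differences beyond the spots. For low against control, 216 genes (1.48%) had a log2 ratio at least as high as that of Sox9, and among the 1847 genes within 0.5 of its log2 level 6 did (0.325%), where the SD of the ratios was 0.13. For high against low, 123 genes (0.849%) were as low as Sox9 and 84 (0.580%) as low as Hapln1 at the mean of its probes, -0.57. Ratios spread more at the lower level of Hapln1: among the 1582 genes within 0.5 of it 28 were as low (1.77%), with an SD of 0.28. For Sox9 it was 2 of 1858 (0.108%), with an SD of 0.17. The mean for Hapln1 includes the dimmer probe, and its place moved with it. At -0.34 on the brighter probe alone 451 genes (3.11%) were as low, and at -0.23 ± 0.08 after normexp background correction and quantile normalization 395 (2.73%). Sox6 was less far out, with 4.71% of genes at least as high for high against low and 9.23% for high against control. For Comp, 9.68% of genes were at least as low between the doses.

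Sox9 did not follow the dose in one direction. The low dose array set against the mean of the other arrays, a contrast chosen after the values were seen, gave 0.46 for Sox9, 0.40 for Hapln1, 0.14 for Comp and -0.20 for Sox6. As far out on the same side were 71, 128, 1311 and 936 of 14395 genes (0.493%, 0.889%, 9.11% and 6.50%). Of the 9 processing alternatives only 4 could move the value of Sox9, Sox6 or Comp, which have 1 probe well above background each, and 6 moved that of Hapln1. Their signs were kept in these, with ranges of 0.38 to 0.55 for Sox9, 0.19 to 0.48 for Hapln1, 0.11 to 0.22 for Comp and -0.20 to -0.12 for Sox6. Sox9 and Sox6, partners in cartilage, thus lay on opposite sides of this contrast. For Sox6 the value was -0.20 with a spot error of 0.08 and a scanner error of 0.13. Its low dose ratio to control was only -0.09 ± 0.09 and turned to 0.07 with spike-in centring, so the values do not show a lower Sox6 at the low dose than in control.

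**Figure D3:**
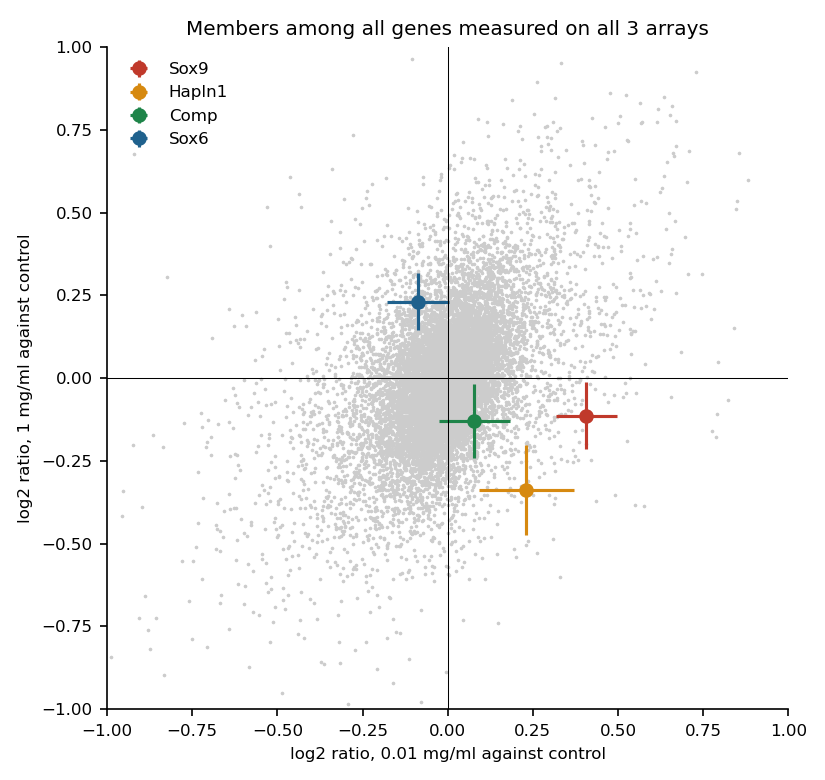
Log2 ratio of low dose (horizontal) and high dose (vertical) against the shared control array for all 14395 genes measured on all arrays (grey; 26 lie outside the frame) and for the 4 measured members with spot errors. Sox9 (0.41 and -0.11) lies at the right of the cloud and Sox6 (-0.09 and 0.23) at its upper left; Hapln1 is drawn at the mean of 2 probes (0.23 and -0.34), whereas its brighter probe alone would stand at 0.49 and 0.15. Both axes use the same control array.

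The genes nearest to each member over its ratios against control were sought among 9663 genes with every spot well above background on all 3 arrays. Nearest to Sox9 were Plaat5 (0.39 with 0.01 mg/ml and -0.16 with 1 mg/ml), Zfp512 (0.36 and -0.10) and Slc28a2 (0.39 and -0.07), at distances of 0.046, 0.047 and 0.048 on the log2 scale. No neighbours are given for Hapln1, whose probes put it at different places. Nearest to Sox6 were Rpap2 (-0.09 and 0.23), Csnk1a1 and Fam117b, and nearest to Comp were Pop5 (0.08 and -0.13), Vdr, which encodes the vitamin D receptor, and Gpr137. Over 3 arrays such likeness rests on a pair of ratios and describes these arrays alone.

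Most cartilage collagen and other cartilage matrix genes were at background. Over all gene names on the array, 40.9% were at background on all 3 arrays. Of 8 cartilage collagen genes 7 were not well above background on any array, among them Col2a1, the main fibrillar collagen of cartilage, Col10a1, the collagen of hypertrophic chondrocytes, Col11a1 and Col11a2. The Col2a1 spots read 7.44 and 13.2 without polyphosphate, 10.2 and 15.0 with 0.01 mg/ml, and 7.75 and 17.2 with 1 mg/ml. Col9a1 was measured by 1 spot of 1 probe (36.1, 42.8 and 34.4 in the same order), with ratios of 0.19 ± 0.35 with 0.01 mg/ml and -0.09 ± 0.35 with 1 mg/ml, and its other probes were at background. Of 16 other cartilage matrix and chondrocyte surface genes 10 were at background throughout, including Matn1, Matn3, Cnmd and Epyc, and the 4 measured had a median of -0.09 at either dose, 0.07 with centring on spike-ins. By contrast 11 of 13 osteoblast markers were well above background on every array, Runx2, Sp7, Alpl, Ibsp, Spp1, Bglap and Col1a1 among them, with Dmp1 and Phex below. The summed raw signal of these markers was 127316, 134428 and 122798 on the control, low dose and high dose arrays, and its part in the ratios of the members was not tested. Most of that sum was Col1a2, whose spots read 88800.8 and 84806.5 on the control array. For high against low 1 of 11 measured markers was higher and 6 lower by more than 2 spot errors, where 9.77% and 10.8% of all genes were. Against control 1 was higher and 3 lower at the high dose, where 10.7% and 12.8% were. At the low dose there were 0 of either, where 4.16% and 4.42% were. With centring on spike-ins 2 were above and 0 below control at the high dose, where 40.9% and 1.8% of all genes were. At the low dose 7 were above and 0 below under it, where 44.1% and 0.479% were. The detected members are single genes of a programme whose defining collagens and aggrecan were at background in these cells, and in bulk RNA a few cells with much Sox9 cannot be told apart from many cells with little.

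Of the other Sox genes 14 had a probe and 5 were measured. Sox8 and Sox10, the closest relatives of SOX9, stood at -0.01 ± 0.19 and 0.06 ± 0.24 at the low dose. Sox4, a Sox gene of progenitor cells, was higher at the high dose at 0.12 ± 0.06, from 6168 and 6563 on the control array to 6846 and 7181, and Sox18, an endothelial Sox gene, was lower at -0.57 ± 0.24, from 53.2 and 48.9 to 33.2 and 36.4. These were the 1 higher and 1 lower of the 5 by more than 2 spot errors, where 10.7% and 12.8% of all genes were, and at the low dose there were 0 of either. With centring on spike-ins Sox18 stood at -0.42, within 2 spot errors of 0. The medians were 0.12 with 1 mg/ml and -0.01 with 0.01 mg/ml, or 0.28 and 0.15 with centring on spike-ins.

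Among relatives of the link protein, aggrecan and COMP, 7 of 13 genes were measured. Their medians were 0.06 with 0.01 mg/ml and 0.00 with 1 mg/ml, or 0.22 and 0.16 with centring on spike-ins. At the low dose 1 was above and 1 below control by more than 2 spot errors, where 4.16% and 4.42% of all genes were. At the high dose 2 were above and 1 below, where 10.7% and 12.8% of all genes were. Hapln3, which encodes another link protein, was higher at both doses, at 0.23 ± 0.10 and 0.29 ± 0.11, with spots of 182 and 212 without polyphosphate, 223 and 259 with 0.01 mg/ml, and 252 and 234 with 1 mg/ml. Vcan, which encodes versican, an aggrecan relative of loose matrix, was lower at both, at -0.18 ± 0.07 and -0.19 ± 0.06, and with the spike-in shift of 0.16 and 0.15 both values came within 1 spot error of 0. Cd44, the hyaluronan receptor, was higher at the high dose at 0.17 ± 0.09. Thbs2, a thrombospondin gene, stood at 0.07 ± 0.06 and 0.00 ± 0.06. Fmod, which encodes the collagen-binding proteoglycan fibromodulin, belongs to the list of other cartilage matrix genes and not to these 7. It was lower at the high dose at -0.17 ± 0.05, and stood at -0.02 with centring on spike-ins.

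Regulators of the chondrocyte programme had medians near 0 at both doses, -0.02 over 23 measured of 37 at the low dose and -0.02 over 22 at the high dose, 0.14 and 0.13 with centring on spike-ins. At the low dose 0 were above and 1 below by more than 2 spot errors, where 4.16% and 4.42% of all genes were, and at the high dose 1 and 2, where 10.7% and 12.8% were. With centring on spike-ins 8 of 23 were above and 0 below at the low dose, where 44.1% and 0.479% of all genes were. At the high dose 8 of 22 were above and 1 below, where 40.9% and 1.8% of all genes were. Tgfb1, a growth factor gene that induces chondrogenesis, was lower at the high dose at -0.29 ± 0.04, with 583 and 602 on the control array and 505 and 493 at the high dose, and stood at -0.02 ± 0.03 at the low dose. It was the 1 regulator still below control by more than 2 spot errors with centring on spike-ins, at -0.13. Hey1, a Notch target, stood at -0.54 ± 0.24 with 1 of 2 high dose spots well above background. Hif1a, a hypoxia factor that acts upstream of Sox9 in cartilage, stood at 0.28 ± 0.16 with 1 mg/ml and -0.16 ± 0.18 with 0.01 mg/ml. The highest at the low dose were Fgfr3, a growth factor receptor gene of chondrocytes, at 0.17 ± 0.15 and Bmp2 at 0.11 ± 0.16. Ihh, Pthlh, Gdf5 and Barx2 were at background on all arrays.

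Genes that build and sulfate chondroitin chains, the side chains of aggrecan, differed in both directions with 1 mg/ml: 4 of 21 measured were above and 8 below control by more than 2 spot errors, where 10.7% and 12.8% of all genes were. With centring on spike-ins 6 were above and 0 below, where 40.9% and 1.8% of all genes were. None of the lower values next given therefore passed 2 spot errors under it. The sulfate donor synthase gene Papss2 was lower at -0.20 ± 0.04, on 4 spots of 2 probes, and its transporter gene Slc35b2 at -0.25 ± 0.08. The linker enzyme gene B3gat3 stood at -0.35 ± 0.11 and the sulfotransferase gene Chst11 at -0.38 ± 0.18. Csgalnact2, which encodes an enzyme that starts chondroitin chains, was higher at 0.40 ± 0.15, with 79.8 and 97.6 on the control array and 105 and 132 at the high dose. Slc26a2, the sulfate transporter gene of chondrocytes, had the highest ratio of the list at both doses, 0.41 ± 0.26 and 0.60 ± 0.25, but its spots disagreed: one read 30.2, 29.4 and 28.4 on the control, low dose and high dose arrays, and the other 14.7, 29.1 and 36.6, the first of these not well above background. At the low dose 1 gene of the 21 (4.76%) was above control by more than 2 spot errors, the sulfotransferase gene Chst13 at 0.26 ± 0.12, and 0 below. Of all genes 4.16% were above and 4.42% below, so the count above is near that share. The medians were -0.03 with 0.01 mg/ml and -0.04 with 1 mg/ml, 0.12 and 0.11 with centring on spike-ins.

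Among proteases and inhibitors of cartilage matrix, the aggrecanase genes Adamts1 and Adamts5 stood at 0.17 ± 0.03 and 0.11 ± 0.08 with 1 mg/ml and at -0.11 ± 0.04 and -0.05 ± 0.08 with 0.01 mg/ml, while Adamts4 was at background. Adamts7, whose enzyme cleaves COMP, stood at -0.15 ± 0.06 with 1 mg/ml and -0.11 ± 0.06 with 0.01 mg/ml. With the spike-in shift the high dose value of Adamts7 came to 0.00 and the low dose values of both aggrecanase genes turned above 0. Of 10 measured genes 1 was above and 4 below control at the high dose by more than 2 spot errors, where 10.7% and 12.8% of all genes were, and 0 and 1 at the low dose, where 4.16% and 4.42% were. With centring on spike-ins these counts were 7 above and 0 below at the high dose, where 40.9% and 1.8% of all genes were. At the low dose they were 5 and 0, where 44.1% and 0.479% of all genes were. The list had medians of -0.02 and -0.03, which were 0.14 and 0.13 with centring on spike-ins. Mmp3, a stromelysin gene, had a ratio of 0.78 ± 0.26 for high against low from 1 of 2 spots well above background.

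**Figure D4:**
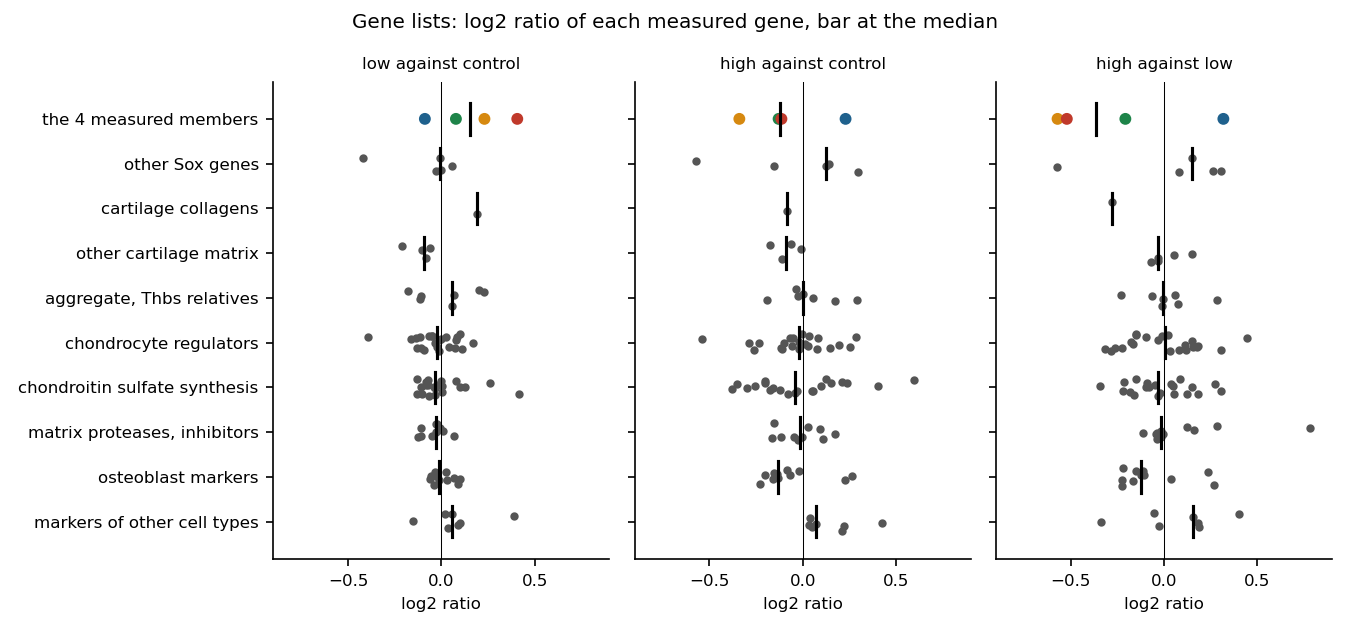
Log2 ratio of every measured gene of the lists (grey points, black bar at the median) and of the 4 measured members (coloured points, top row) in each comparison. For high against low the medians are -0.36 for the members, 0.15 for the other Sox genes and -0.13 for the osteoblast markers, with the remaining lists of more than 1 gene other than markers of other cell types between -0.03 and 0.01.

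Markers of other cell types gave 7 of 16 genes well above background on each array, with Ptprc, Epcam, Adipoq and Myod1 at background on all. Their summed raw signal was 4871 on the control array, 5261 with 0.01 mg/ml and 5626 with 1 mg/ml, of which the tendon factor gene Scx alone made 4330, 4668 and 5009. Without Scx, and relative to the 75th percentile of each array, the sums were 0.583, 0.615 and 0.659. The macrophage marker Cd68 was higher at the low dose at 0.39 ± 0.18, the 1 gene of the 7 past 2 spot errors there, where 4.16% of all genes were above. Past 2 spot errors at the high dose were Pecam1 and Scx, at 0.42 ± 0.15 and 0.22 ± 0.06, where 10.7% of all genes were above. Counts out of 7 genes are too few to set against these shares. Their part in the ratios of Sox9, Hapln1 and Sox6 was not tested.

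Promoter windows were available in the RefSeq table (GRCr8) for 4 of the 6 members, and a pair is shown because Hapln1 and Sox6 lay on opposite sides of the dose contrast. Each is the 250 bases before the annotated start site, 5′ to 3′, on the plus strand for Hapln1 (chr2:22366717-22366966) and the minus strand for Sox6 (chr1:179665372-179665621), with matches to the SOX core motifs ACAAAG and ACAATG on either strand in capitals.
Hapln1: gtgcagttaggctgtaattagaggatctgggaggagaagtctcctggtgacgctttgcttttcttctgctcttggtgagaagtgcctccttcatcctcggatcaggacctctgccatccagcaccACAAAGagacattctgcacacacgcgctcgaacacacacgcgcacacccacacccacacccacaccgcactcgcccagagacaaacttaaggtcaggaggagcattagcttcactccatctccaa
Sox6: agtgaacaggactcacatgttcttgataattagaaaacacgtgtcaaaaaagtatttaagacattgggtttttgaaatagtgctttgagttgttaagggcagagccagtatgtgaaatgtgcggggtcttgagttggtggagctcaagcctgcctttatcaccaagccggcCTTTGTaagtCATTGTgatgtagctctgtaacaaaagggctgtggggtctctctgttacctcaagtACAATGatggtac

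Hapln1 held 1 match, from -125 to -120, and Sox6 held 3, at -79 to -74, -69 to -64 and -13 to -8, while the windows of Acan and Comp held 0. ACAAAG or its reverse complement occurred in 18.8% of all 33469 promoter windows of 300 bases, ACAATG in 13.2%, and either motif in 29.1%. Of these windows 6.03% held 2 or more matches to either, and 0.977% held 3 or more. Over the whole window of 300 bases, which runs on past the start site, Sox6 has a GC content of 42.0% and Acan and Comp 73.0% and 64.7%, and these motifs are rich in A and T. A match is a description of the letters and says nothing about binding in these cells.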

How the data were processed

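The authors deposited 3 one-colour scanner files, 1 per group, of spot intensity. Per the file headers they come from Agilent Feature Extraction 10.7.3.1, protocol GE1_107_Sep09, design 028279 with rn4 coordinates, and are background-subtracted and detrended within an array. The deposited series table holds a ratio, the processed signal over 1 constant per array (823 for high, 849 for low and 823 for control); it served as an alternative, and each constant equals the 75th percentile over all spots, controls included, to 3 significant digits.

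Each spot was expressed as a log2 value relative to the 75th percentile of processed signal over non-control spots (926 for control, 964 for low and 937 for high). Outlier-flagged spots were left out (none was a member's spot), spots of a probe averaged, and a probe taken as well above background where 50% of its spots were flagged so (55.9% to 57.2% of probes on an array). A gene's ratio is the mean over its probes that passed on both arrays. The spot error pools the SD between repeat spots in 20 bins of level, over probes with all spots well above background. The ratio and the spot error were tested on simulated arrays of known ratio and spot SD. Symbols outside the member list were updated by RefSeq accession for 62.0% of probes. The alternatives were normexp (limma 3.58.1, offset 50) with quantile normalization, quantile normalization alone, spike-in centring, the series table, outliers kept, every spot well above background, the brightest probe, median spots and the scanner error. The spike-in centring used 8 of 10 spike-in probes and raises every log2 ratio by 0.15 for high against control and 0.16 for low against control. Named genes were the members, the highest and lowest 2 of each list per comparison, and the 3 nearest genes; no neighbours are printed for Hapln1, and other list genes were named after their values were seen, and not all that the rule selects are printed. The members and lists were chosen with earlier results of these data known. Python 3.11.15 and R 4.3.3 were used.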

Additional observations from a re-analysis of the deposited data

How the results depend on the processing

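Of 225 values recomputed under 9 alternatives, 128 equalled the reported value, in part because an alternative could not move a gene with 1 probe of 2 unflagged spots, and those say nothing about stability. Of the other 97, 65 moved by less than 1 spot error (counts by no more than 1.5 times), 27 moved by more and 5 were reversals, all in Hapln1 and the median over the members. With spike-in centring, ratios within 2 spot errors of 0 also crossed it: Sox9 and Comp for the high dose and Sox6 for the low dose against control. Sox9 kept its direction in both comparisons with the low dose array, with ranges of 0.34 to 0.57 for low against control and -0.55 to -0.42 for high against low; the extremes beyond 1 spot error were 0.57 with spike-in centring and -0.42 with normexp. For high against control Sox9 came to 0.040 with spike-in centring. Hapln1 for high against control turned from -0.34 to 0.15 with every spot well above background and with the brightest probe, since both leave the probe at offset 1972 alone. The median over the members for high against control turned to 0.017 under the same pair of alternatives and to 0.033 with spike-in centring; for low against control it moved to 0.31 with spike-in centring, and for high against low to -0.20 with normexp. Members past 2 errors for high against control numbered 2, but 0 with normexp, 1 with spike-in centring, 1 with every spot well above background, 1 with the brightest probe and 0 with the scanner error. For low against control they numbered 1, but 3 with spike-in centring and 2 with the brightest probe. For high against low they numbered 3, but 2 with normexp and 4 with quantile normalization alone. Sox6 was the member that fell within 2 errors of 0 with normexp, at 0.26 ± 0.13. The count of members 2-fold apart was 0 under all 9 alternatives. Over all genes, 2-fold higher and lower counts were 9 and 8 for high against control, 10 and 7 for low against control, and 7 and 4 for high against low. With normexp they were 1 and 1, 2 and 1, and 0 and 1, with spike-in centring 18 and 5, 16 and 2, and 7 and 4, and with every spot well above background 7 and 3, 6 and 6, and 5 and 2. No paired analysis was possible because each group holds 1 array. The number of arrays limits precision, and below the flag for well above background no ratio is given.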
